A study of Mus musculus with 10 samples.

Results

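The C-type lectin receptors of myeloid cells were followed through tumor-associated macrophages (TAM) and spleen myeloid-derived suppressor cells (MDSC) of mice with and without SHP-2 in the myeloid lineage. The 10 genes were Clec4a1, Clec4a2, Clec4a3, Clec4d, Clec4e, Clec4n, Clec7a, Clec9a, Clec12a and Clec10a. They were chosen by gene symbol, with earlier results of these data known, and all 10 were found among the 55421 genes of the count table. The paper already names Clec4e, Clec4d and Clec4n, and a gene it writes as Clec10, as higher in TAM without SHP-2. The list is thus not independent of these data.

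RNA was sequenced from 10 samples of mice implanted with MC17-51 fibrosarcoma cells at 8 to 12 weeks of age and killed at day 15. Both genotypes carried Ptpn11 alleles flanked by loxP sites, the gene of the phosphatase SHP-2. Shp2f/f mice had no Cre and served as the control, and Shp2f/fLysMcre mice carried Cre recombinase under the lysozyme M promoter, at the Lyz2 gene, which removes the floxed segment in cells of the myeloid lineage that use this promoter. MDSC were taken from the spleen with magnetic beads, as Gr1hi Ly6G+ Ly6C- cells by the study's methods, with 2 samples per genotype. TAM were sorted from the tumors of the same mice as live CD45+ CD11b+ F4/80+ Ly6G- cells, with 3 samples per genotype. The labels do not say whether a sample pools mice, and nothing in them ties a sample to 1 mouse, so p-values measure the spread between these samples.

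C-type lectin receptors are membrane proteins of phagocytes that bind sugars, lipids and remains of dead cells on microbes and on host material. Clec4e (Mincle), Clec4d (MCL) and Clec4n (Dectin-2) signal through the ITAM adaptor FcRγ, whereas Clec7a (Dectin-1) and Clec9a (DNGR-1) carry a tyrosine motif of their own. Both routes recruit the kinase Syk. For the FcRγ-coupled receptors and Dectin-1, Syk acts through Card9, Bcl10 and Malt1 on NF-κB and on cytokine genes. Clec4a2 (DCIR) and Clec12a (MICL) carry an inhibitory ITIM, a docking site for the phosphatases SHP-1 and SHP-2. Clec4a1 and Clec4a3 are close relatives of Clec4a2, and Clec10a (MGL1) binds terminal galactose sugars. SHP-2 is also known as a scaffold that helps Syk to reach activating receptors of this family.

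On GRCm38, 9 of the 10 genes lie on chromosome 6 in 2 clusters. The Dectin-2 cluster, positions 122921848 to 123289870, holds Clec4a1, Clec4a3, Clec4a2, Clec4n, Clec4d and Clec4e in this order. The Dectin-1 cluster, positions 129342691 to 129472779, holds Clec12a, Clec9a and Clec7a. The annotation lists Clec7a as a polymorphic pseudogene and the other 9 as protein coding. Clec10a lies alone on chromosome 11, positions 70156197 to 70170834. Counts are sums over the exons of each gene. RefSeq promoters (GRCm38.p6) matched 8 of the 10 genes, and Clec4n and Clec10a had no entry. Each start is the RefSeq one, and for Clec12a and Clec4a2 the window before it lies inside the annotated gene. The 250 bases before the start are shown for 5 members that behaved unlike each other between the genotypes in TAM: Clec4a1, Clec4d and Clec4e, which were higher without SHP-2, Clec7a, for which no difference was called, and Clec12a, which was slightly lower. Each sequence runs 5′ to 3′ on the strand of its gene, and capitals mark motif matches on either strand.
Clec4a1, chr6:122921598-122921847, plus strand: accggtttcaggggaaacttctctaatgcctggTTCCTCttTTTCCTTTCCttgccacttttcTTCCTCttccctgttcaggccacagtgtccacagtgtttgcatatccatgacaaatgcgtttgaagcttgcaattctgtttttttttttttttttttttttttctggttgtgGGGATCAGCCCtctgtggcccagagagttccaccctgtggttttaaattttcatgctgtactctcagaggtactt
Clec4d, chr6:123261857-123262106, plus strand: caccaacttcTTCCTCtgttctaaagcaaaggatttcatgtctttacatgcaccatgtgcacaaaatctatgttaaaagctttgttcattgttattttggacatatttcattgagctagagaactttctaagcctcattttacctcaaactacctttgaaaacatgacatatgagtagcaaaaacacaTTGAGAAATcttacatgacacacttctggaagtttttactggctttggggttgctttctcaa
Clec4e, chr6:123289872-123290121, minus strand: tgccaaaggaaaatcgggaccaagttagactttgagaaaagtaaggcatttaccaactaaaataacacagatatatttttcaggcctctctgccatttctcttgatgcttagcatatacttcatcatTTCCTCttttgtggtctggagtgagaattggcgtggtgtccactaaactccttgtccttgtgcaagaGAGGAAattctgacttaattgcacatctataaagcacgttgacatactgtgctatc
Clec7a, chr6:129472780-129473029, minus strand: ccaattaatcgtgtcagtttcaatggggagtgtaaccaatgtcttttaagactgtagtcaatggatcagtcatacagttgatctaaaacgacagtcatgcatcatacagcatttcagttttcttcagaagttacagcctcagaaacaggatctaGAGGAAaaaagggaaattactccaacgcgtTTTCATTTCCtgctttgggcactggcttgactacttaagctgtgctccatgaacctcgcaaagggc
Clec12a, chr6:129349994-129350243, plus strand: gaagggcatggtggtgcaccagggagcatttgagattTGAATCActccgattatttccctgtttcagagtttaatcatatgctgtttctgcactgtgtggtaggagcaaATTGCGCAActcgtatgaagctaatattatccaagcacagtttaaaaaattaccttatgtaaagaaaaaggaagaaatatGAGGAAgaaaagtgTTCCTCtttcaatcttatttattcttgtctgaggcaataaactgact
Capitals stand for GAGGAA (PU.1, a factor that defines the myeloid lineage), TGANTCA (AP-1), TTNNGNAAT (C/EBP), NF-kB (GGG and CC with 5 bases between), IRF (GAAA and GAAA with 2 bases between) and a composite ETS-IRF motif (GGAA and GAAA with 2 bases between), or for their reverse complements. The PU.1 motif occurred in a promoter of 6 of the 8 matched members, and 23.3% of all 32851 mouse promoters hold it in the same 250 bases before the start. The ETS-IRF motif occurred in Clec4a1 and Clec7a, and 2.3% of all windows hold it. The C/EBP motif was found in Clec4a2, Clec4d and Clec12a (10.2% of all windows), the AP-1 motif in Clec12a (6.75%) and the NF-kB motif, as 2 overlapping matches, in Clec4a1 (45.8%). The IRF motif, held by 2.98% of all windows, was not among these letters in any of the 8. Clec4e carried PU.1 matches at 123 to 118 and at 56 to 51 bases before its start, and Clec7a carried 1 at 96 to 91 bases before the start shown. These matches describe letters only. Those of Clec4e, higher without SHP-2, and of Clec7a, with no difference called, share the PU.1 motif.

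The libraries held 28844660 to 38222998 counts. Ptpn11 was 121 to 125 CPM (counts relative to a common library size, after TMM scaling, which equalizes libraries by the genes they share) in TAM of Shp2f/f mice and 50.9 to 54.2 CPM without SHP-2 (adjusted p = 2.96e-09), and in MDSC it was 99.2 and 113 CPM against 79.6 and 94.8 CPM (adjusted p = 0.361). Reads from a deleted allele can still be counted in it, and "without SHP-2" is used here for the Shp2f/fLysMcre genotype as labelled, also in MDSC, where the lower Ptpn11 did not pass. Lyz2, where Cre sits, fell by 8.33 on the log2 scale in TAM and fell by 7.68 in MDSC. Shp2f/fLysMcre mice thus differed from controls in SHP-2, in Cre and in Lyz2 RNA at once, and these cannot be told apart. The paper also reports smaller tumors in these mice. The study's methods describe the MDSC as Ly6G+ Ly6C- cells, yet Ly6g was 8.91 to 33.2 CPM in the 4 MDSC libraries while Ly6c2 was 476 to 576 CPM. Csf1r, a receptor of monocytes and macrophages, was 1029 to 1442 CPM in them. The F4/80 gene Adgre1 was 636 to 996 CPM in TAM, which were sorted as F4/80+, and 209 to 382.5 CPM in MDSC. MDSC Shp2f/fLysMcre replicate 2 stood apart, with 705 CPM summed over 10 fibroblast and tumor markers against 18.0 CPM in replicate 1. TAM Shp2f/f replicate 3 stood apart in 10 pancreas markers, which summed to 6564 CPM against 853 and 1271 CPM in the other 2. The 3 Shp2f/fLysMcre TAM libraries held 19.8 to 95.4 CPM of them, so these transcripts separated the genotypes in TAM, with 6 of 7 tested lower (median -6.40) and 6 of 7 also without replicate 3 (median -4.95). Values without these libraries are given below where the result rests on them.

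The first question was how these receptors differed between the genotypes in TAM. Of the 10 receptor genes, 7 rose, 1 fell slightly, 1 showed no called difference, and Clec9a had too few counts to be tested. Dectin-2 (Clec4n) and Clec4a1 rose most, by 1.65-fold and 1.58-fold. Among the 10 genes, the rises took in Clec4e, Clec4d and Clec4n, which couple to FcRγ, and Clec4a1, Clec4a2 and Clec4a3. No difference was called for Dectin-1 (Clec7a). Between genotypes 50.2% of the 14446 genes tested in TAM were called at an adjusted p under 0.05, 23.9% higher and 26.3% lower, and the 8 called members of 9 tested are to be read against that share. The median log2 fold change was 0.49 over the 9 members tested and -0.01 over all genes.

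Among the FcRγ-coupled receptors, Clec4n, which binds fungal mannans, was at 275, 283 and 269 CPM in Shp2f/f TAM and at 485, 471 and 443 CPM in Shp2f/fLysMcre TAM. All 3 SHP-2-deficient libraries lay above all 3 controls. By edgeR's quasi-likelihood test with Benjamini-Hochberg adjustment, the difference on the log2 scale was 0.72 (SE 0.0416, adjusted p = 1.77e-07). Clec4d, the partner that pairs with Mincle, was at 254, 276 and 256 CPM in controls and at 406, 403 and 379 CPM without SHP-2. The groups did not overlap, and the difference was 0.56 (log2, SE 0.0432, edgeR, adjusted p = 1.37e-06). Clec4e, the Mincle gene, a sensor of mycobacterial glycolipid and of dying cells, was at 217, 235 and 233 CPM in controls and at 315, 338 and 332 CPM without SHP-2. Again the groups did not overlap, with a difference of 0.49 (log2, SE 0.0441, edgeR, adjusted p = 4.59e-06).

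In the Clec4a group, Clec4a1 was at 286, 322 and 308 CPM in control TAM and at 500.2, 504 and 474 CPM without SHP-2 (log2 fold change 0.66, SE 0.0459, edgeR, adjusted p = 6.95e-07). Clec4a3 was at 173, 199.5 and 189 CPM in controls and at 269.7, 272 and 252 CPM without SHP-2 (log2 fold change 0.46, SE 0.0518, edgeR, adjusted p = 2.36e-05). Clec4a2, the ITIM-bearing DCIR gene, was at 236, 258 and 247 CPM in controls and at 345, 313 and 301 CPM without SHP-2 (log2 fold change 0.34, SE 0.0533, edgeR, adjusted p = 0.000319). In all 3 genes the lowest SHP-2-deficient library lay above the highest control. Clec4a2 shared 8.09% of its 42-base windows with other genes, mostly Clec4a4 and Clec4b1, and the counting setting for such reads is not given in the sources used here.

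Clec10a, the galactose receptor MGL1, was low but tightly measured, at 17.6, 18.1 and 17.8 CPM in control TAM and at 27.1, 27.7 and 27.1 CPM without SHP-2. The groups lay apart, with a difference of 0.58 (log2, SE 0.0457, edgeR, adjusted p = 1.71e-06). Its transcripts share 11.2% of their windows with other genes, most with its neighbor Mgl2. The 7 genes that rose were the same 7 whose groups did not overlap, and 57.9% of all genes tested lay apart, 30.7% in this direction.

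The ITIM-bearing Clec12a, which senses urate crystals, was at 262, 273 and 251 CPM in controls and at 261, 234 and 225 CPM without SHP-2. The groups overlapped, since 1 SHP-2-deficient library reached the control range. It fell by 0.16 on the log2 scale (SE 0.0548, edgeR, adjusted p = 0.0291). That call was lost without Shp2f/f replicate 1 (adjusted p = 0.059), Shp2f/f replicate 2 (0.0954), Shp2f/fLysMcre replicate 2 (0.129) or Shp2f/fLysMcre replicate 3 (0.101), and in 1 fit of all 10 samples (0.237). Clec7a, the β-glucan receptor Dectin-1, was at 232, 247 and 238 CPM in controls and at 248, 244 and 243 CPM without SHP-2. The groups overlapped and the difference was 0.00 (log2, SE 0.0374, edgeR, adjusted p = 0.992). With scaling by total counts, which shifted the median of all genes in this comparison to -0.11, Clec7a was at -0.10 and passed (edgeR, adjusted p = 0.0359), and all 7 rises still passed. Under that scaling the calls of all genes split into 2342 higher and 5227 lower, against 3452 and 3805 with TMM.

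Clec9a, the receptor for exposed actin filaments that marks a lineage of dendritic cells, had 4, 2 and 2 counts in control TAM and 0, 3 and 0 counts without SHP-2. It did not pass the filter on low counts in this comparison. Levels this near to the limit of detection allow no statement on its genotype difference in TAM.

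**Figure D1:**
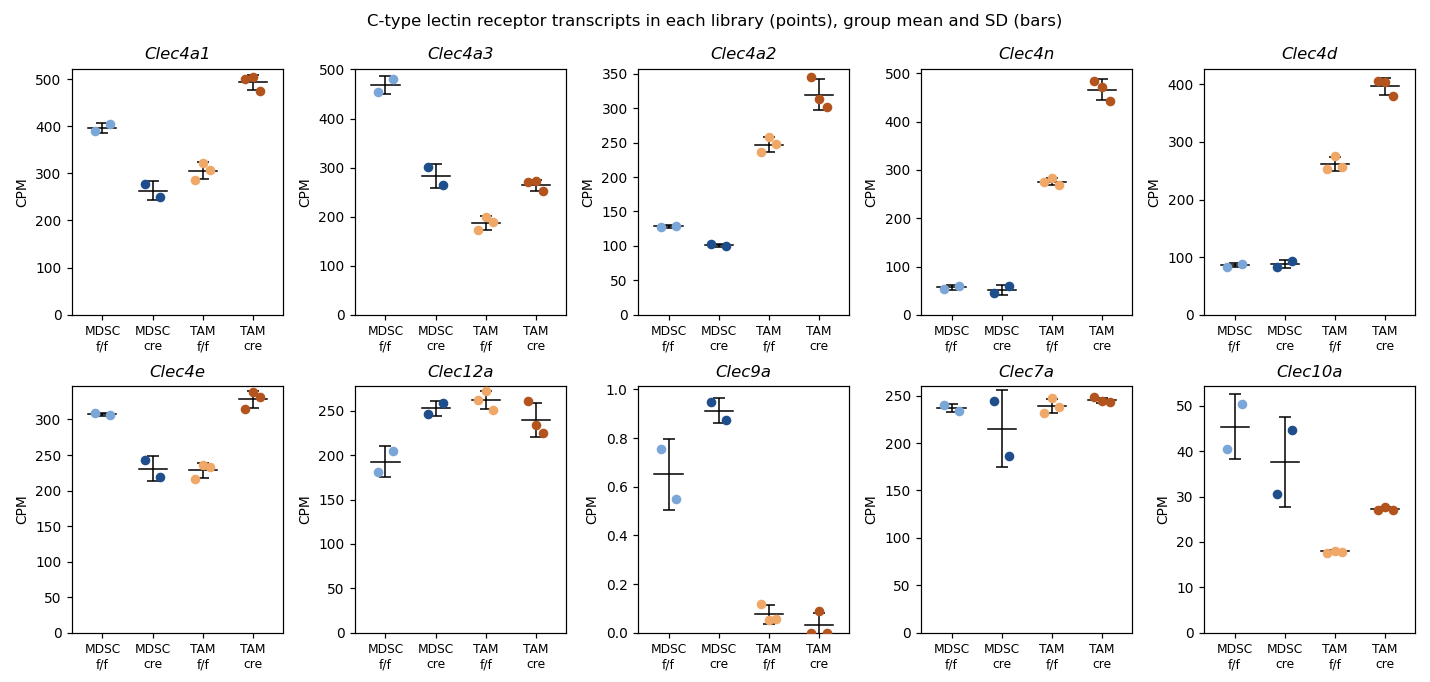
Expression of each of the 10 receptor genes in CPM after TMM scaling, linear axes starting at 0. Points are single libraries, bars the group mean and SD; f/f is Shp2f/f and cre is Shp2f/fLysMcre, with 2 MDSC and 3 TAM libraries each. In TAM the SHP-2-deficient libraries lie above the controls for 7 genes, Clec7a lies at 232 to 248 CPM in both, and Clec9a is under 1 CPM everywhere.

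All 10 macrophage markers, a list of genes such as Adgre1, Csf1r, C1qa and Apoe, also rose in TAM without SHP-2. Their sum went from 11177 to 11784 CPM in controls to 17865 to 20194 CPM, while the sum of the 10 receptor genes went from 1952 to 2112 CPM to 2676 to 2858 CPM. Of 8 monocyte markers, 4 rose and 2 fell, and their sum was 2849 to 2958 CPM against 3393 to 3462 CPM. The 10 markers of cDC1 summed to 416 to 432 CPM in controls and 524 to 545 CPM without SHP-2, with 4 higher and 1 lower of 8 tested. Of 10 tested markers of cDC2 and monocyte-derived cells 3 rose and 2 fell, with a median of -0.29, while their sum of 1627 to 1700 CPM in controls and 2084 to 2311 CPM without SHP-2 was mostly Sirpa. Neutrophil markers summed to 4277 to 4574 CPM in controls and 2431 to 2561 CPM without SHP-2, mostly Mmp9, which fell, while 5 of 10 tested rose. Of 6 NK cell markers tested 6 fell, from a sum of 12.9 to 14.6 CPM to 3.39 to 4.81 CPM. T cell markers summed to 18.9 to 21.1 CPM in controls and 9.99 to 11.1 CPM without SHP-2, and B cell markers to 14.4 to 14.8 CPM and 26.5 to 29.7 CPM. Their part in the rises of the receptor genes was not tested. In bulk samples, more cells that carry a receptor and more of its RNA per cell cannot be told apart. Without TAM Shp2f/f replicate 3, the library with the most pancreas transcripts, the log2 fold changes of the 7 genes were 0.35 to 0.72 and all 7 passed. The part of the pancreas transcripts, which were higher in all 3 control TAM libraries, was not tested.

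In MDSC, by contrast, 1 of the 10 receptor genes passed, Clec4a3, and it fell. Among the other 9, 6 log2 fold changes that did not pass were also below 0, at -0.14 to -0.59, for Clec4a1, Clec4e, Clec4a2, Clec10a, Clec4n and Clec7a. In this comparison 4.28% of the 14806 genes tested were called, 3.76% higher and 0.52% lower, and 5 members had an unadjusted p under 0.05 where 19.3% of all genes did. The median log2 fold change was -0.21 over the 10 members and -0.01 over all genes.

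Clec4a3 was at 455 and 481 CPM in control MDSC and at 300.2 and 265 CPM without SHP-2. The groups did not overlap, and it fell by 0.73 on the log2 scale (SE 0.127, edgeR, adjusted p = 0.0421). This call did not hold without Shp2f/f replicate 1 (edgeR, adjusted p = 0.664) or without Shp2f/f replicate 2 (0.819), where 1 gene of the whole table passed. Clec4a1 was at 389 and 404 CPM in controls and at 278 and 249 CPM without SHP-2, a log2 fold change of -0.59 (SE 0.122, edgeR, adjusted p = 0.0654). Clec4e was at 309 and 306 CPM in controls and at 243 and 219 CPM without SHP-2, a log2 fold change of -0.42 (SE 0.120, edgeR, adjusted p = 0.140). Clec4a2 was at 127 and 129 CPM in controls and at 102.4 and 99.5 CPM without SHP-2, a log2 fold change of -0.35 (SE 0.106, edgeR, adjusted p = 0.157). In these 3 genes the groups lay apart but the edgeR test, with 2 samples on each side, did not pass. In DESeq2 Clec4a1 (adjusted p = 0.000464) and Clec4e (0.0325) passed and Clec4a2 (0.0846) did not. DESeq2 called 1256 of all 14806 genes tested, against 633 in edgeR.

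Clec12a went the other way, at 180.5 and 205 CPM in control MDSC and at 247 and 259 CPM without SHP-2 (log2 fold change 0.39, SE 0.121, edgeR, adjusted p = 0.168). Clec4d was at 83.7 and 88.4 CPM in controls and at 83.6 and 92.6 CPM without SHP-2, and the groups overlapped. Clec4n was at 53.6 and 60.4 CPM against 44.7 and 58.9 CPM, also with overlap. Clec7a was at 240.3 and 234 CPM in controls and spread from 187 to 244 CPM between the 2 SHP-2-deficient libraries, with the lower value in replicate 2. Clec10a was at 40.4 and 50.4 CPM against 30.6 and 44.6 CPM, and Clec9a at 0.755 and 0.548 CPM against 0.948 and 0.876 CPM. In all, 4 members lay apart on the lower side and 2 on the higher side, and 48.9% of all genes tested lay apart, 24.1% lower and 24.9% higher.

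Without MDSC Shp2f/fLysMcre replicate 2, the library with fibroblast transcripts, 1 library of that group was left, so only log2 fold changes are given here. They were -0.64 for Clec4a3, -0.56 for Clec10a, -0.51 for Clec4a1, -0.35 for Clec4n, -0.33 for Clec4e and -0.32 for Clec4a2. Clec4d was at -0.04, Clec7a at 0.05, Clec12a at 0.36 and Clec9a at 0.54. That fit assumes that the lone remaining library varies as the others do. Without Shp2f/fLysMcre replicate 1 instead, Clec4a3 was at -0.86, Clec4a1 at -0.71, Clec4e at -0.53, Clec4a2 at -0.41 and Clec7a at -0.39. In that fit Clec10a was at -0.07, Clec4n at 0.00, Clec4d at 0.06, and Clec12a and Clec9a at 0.38 each. Markers of several cell types moved in MDSC as well. Neutrophil markers summed to 9648 to 9941 CPM in controls and 25601 to 30963 CPM without SHP-2, and 6 of 11 rose. Erythroid markers summed to 313 to 350.5 CPM in controls and 539.6 to 706 CPM without SHP-2, and 7 of 10 rose and 1 fell. Monocyte markers summed to 9324 to 9530.5 CPM in controls and 6408 to 8712 CPM without SHP-2, macrophage markers to 3276 to 3455 CPM and 2583 to 2730.5 CPM, and B cell markers to 1533 to 2039 CPM and 986 to 1364 CPM. Of the B cell markers 3 fell by the test, and of the 8 monocyte markers 0 passed in edgeR, where 3 had an unadjusted p under 0.05 and 3 passed in DESeq2. The part of these shifts in the receptor values was not tested.

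**Figure D2:**
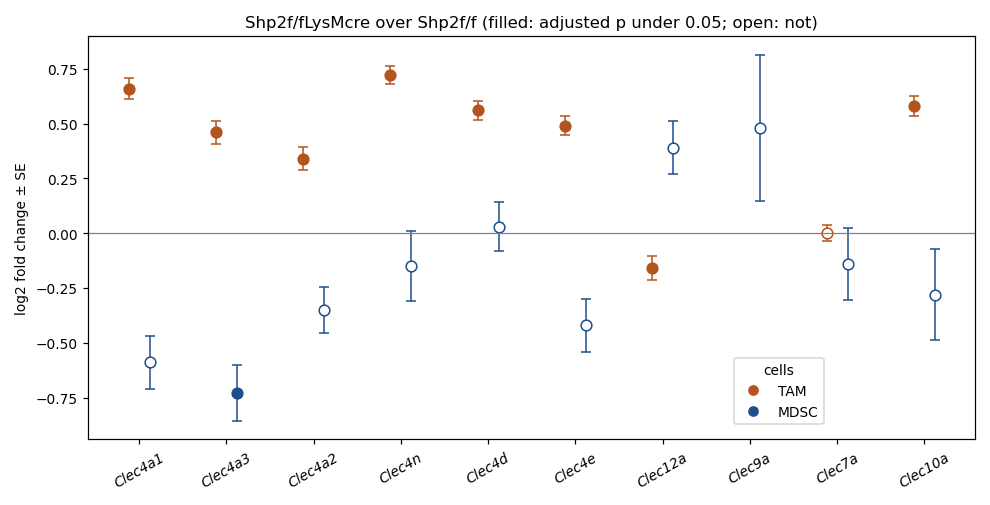
Log2 fold change of each receptor gene, Shp2f/fLysMcre over Shp2f/f, with its standard error, in TAM and in MDSC; filled points passed at an adjusted p under 0.05 and open points did not. The 7 rises in TAM lie between 0.34 and 0.72, while the MDSC values of the same genes lie between -0.73 and 0.03.

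Whether the genotype difference was unequal in the cell types was tested directly, as an interaction in 1 fit of the 10 libraries. It passed for 8 of the 10 receptor genes, 7 higher and 1 lower in TAM, while 24.9% of the 16581 genes tested passed, 12.2% higher and 12.7% lower. The interaction shares its libraries with both comparisons above. The joint fit also pools the spread, although the biological coefficient of variation was 0.0595 in TAM alone, 0.189 in MDSC alone and 0.141 jointly. Its SE and p-values can therefore understate the spread of MDSC. For Clec4a1 the SE of the genotype difference in MDSC alone was 0.122, above that of the interaction. The same limit holds for TAM set against MDSC below, from the same fit. For Clec4a1 the genotype difference was higher in TAM by 1.28 on the log2 scale (SE 0.102, edgeR, adjusted p = 3.21e-05) and for Clec4a3 by 1.22 (SE 0.113, edgeR, adjusted p = 6.66e-05). The differences for Clec4e (0.94), Clec4n (0.89), Clec10a (0.88), Clec4a2 (0.71) and Clec4d (0.56) also passed, with adjusted p of 0.000109 to 0.0113. For Clec12a the value was -0.52 (SE 0.116, edgeR, adjusted p = 0.00976), a call lost without MDSC Shp2f/f replicate 1 (adjusted p = 0.0726). For Clec7a the value was 0.17 (SE 0.135) and for Clec9a -1.60 (SE 1.10), and neither passed. Clec7a passed at 0.39 without MDSC Shp2f/fLysMcre replicate 1 (edgeR, adjusted p = 0.00283) and was at -0.01 without replicate 2, so its value rests on these 2 libraries. Clec9a passed at -4.92 without TAM Shp2f/fLysMcre replicate 2 (adjusted p = 0.0353), which left that group without a count. Without MDSC Shp2f/fLysMcre replicate 2 the 7 higher values were 0.64 to 1.20, and that of Clec12a was -0.49. With scaling by total counts 8 passed too, 7 higher and 1 lower, while the calls of all genes split into 1234 higher and 3132 lower, against 2030 and 2102 with TMM, and the median of all genes was -0.18.

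The genes of the chromosome 6 clusters were also taken in their order. The Dectin-2 cluster, bounded here by its outermost receptor genes, holds 13 annotated genes, of which 8 were tested in TAM. Of these 8, 6 are the receptor genes whose rises are already counted above. Other regions were not compared. In all, 7 of the 8 rose, where 23.9% of all genes tested did. They were the 6 receptor genes named above and Clec4b1 (DCAR), a low gene that went from 1.04 ± 0.321 CPM (SD, n = 3) to 6.05 ± 0.383 CPM (SD, n = 3), a log2 fold change of 2.51 (SE 0.190, edgeR, adjusted p = 1.19e-06). Clec4a4, the remaining gene tested, was at 0.27 and did not pass. In MDSC 9 genes of this cluster were tested, with Clec4a3 lower and Clec4b2 higher at 2.38 (edgeR, adjusted p = 0.0260), from 0.871 and 0.692 CPM to 4.96 and 3.23 CPM. The Dectin-1 cluster holds 7 annotated genes. In TAM 3 of them were tested, with Clec12a lower and Clec1b and Clec7a not called. In MDSC 0 of the 5 tested passed in edgeR, where 2 (Clec12a and Clec1a) had an unadjusted p under 0.05, and 0 passed in DESeq2. Beside Clec10a, Mgl2 was at -0.34 in TAM (edgeR, adjusted p = 0.0542) and at 2.60 in MDSC (adjusted p = 0.0304), where Clec10a was at -0.28 and did not pass. Slc16a13 on the other side of Clec10a did not pass in either cell type, and Gm12311 and Slc16a11 were too low to be tested.

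**Figure D3:**
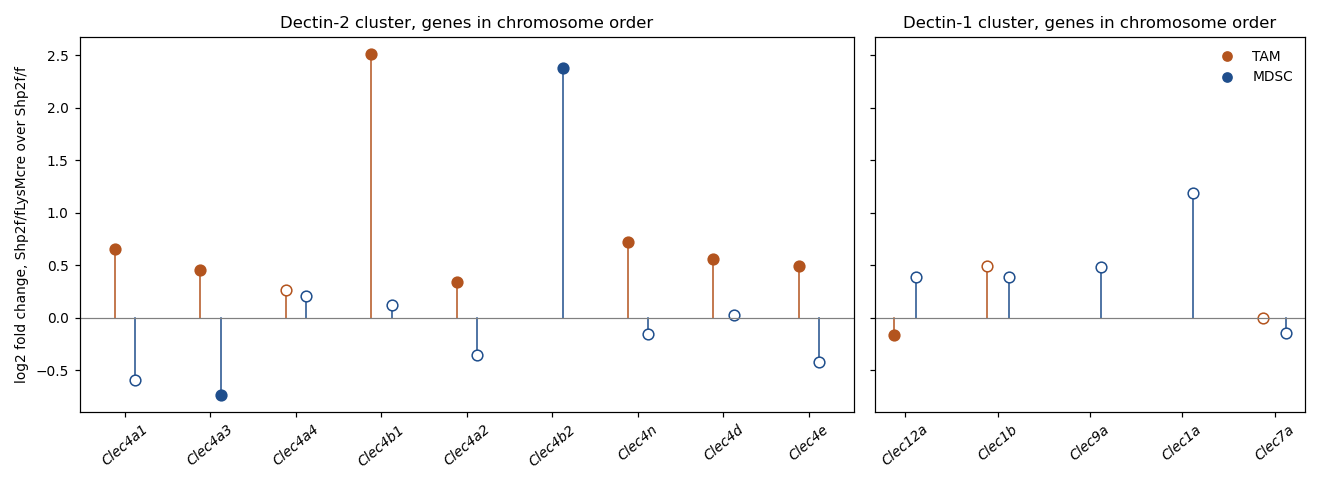
Log2 fold change, Shp2f/fLysMcre over Shp2f/f, of the tested genes of the 2 chromosome 6 clusters in chromosome order; filled points passed at an adjusted p under 0.05, open points did not. In the Dectin-2 cluster all 8 TAM values lie above 0 and 7 are filled, with Clec4b1 highest at 2.51, while the Dectin-1 cluster holds 1 filled point, Clec12a at -0.16.

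The design also allowed TAM to be set against MDSC within each genotype, in the fit of all 10 libraries. In Shp2f/f mice 9 of the 10 receptor genes differed, against 69.6% of all genes, with 4 higher in TAM (35.1% of all genes) and 5 lower (34.6%). Clec4n was the gene most biased to TAM, at 276 ± 6.76 CPM (SD, n = 3) in TAM and 57.0 ± 4.83 CPM (SD, n = 2) in MDSC, a log2 fold change of 2.27 (SE 0.116, edgeR, adjusted p = 7.23e-08). Clec4d followed at 1.61, Clec4a2 at 0.95 and Clec12a at 0.44. Clec10a at -1.35, Clec4a3 at -1.32, Clec4e at -0.43 and Clec4a1 at -0.38 were higher in MDSC, with adjusted p of 2.40e-07 to 0.000944. Clec7a was at 239 ± 7.64 CPM (SD, n = 3) in TAM and 237 ± 4.65 CPM (SD, n = 2) in MDSC, and did not pass (log2 fold change 0.01, SE 0.0953, edgeR, adjusted p = 0.907).

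Clec9a was higher in MDSC, though at very low counts. Over the Shp2f/f libraries it had 45 counts in MDSC and 8 in TAM, a ratio of 8.86 with an exact 95% interval of 4.13 to 21.8. Over the Shp2f/fLysMcre libraries it had 70 and 3 counts, a ratio of 27.9 with an interval of 9.15 to 138. These intervals cover counting error only. The gene overlaps Clec1b on the same strand and shares 4.27% of its windows with it, and Clec1b was at 2.47 and 3.25 CPM in MDSC of the 2 genotypes and at 0.255 and 0.372 CPM in TAM.

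In Shp2f/fLysMcre mice 7 of the 10 genes differed between TAM and MDSC, against 68.9% of all genes, 5 higher in TAM (32.3% of all genes) and 2 lower (36.6%). Clec4n was at 3.17, an 8.99-fold higher level in TAM, Clec4d at 2.17, Clec4a2 at 1.66, Clec4a1 at 0.90 and Clec4e at 0.51. Clec4a1 and Clec4e, which were higher in MDSC than in TAM of Shp2f/f mice, were thus higher in TAM than in MDSC of mice without SHP-2, and both interactions passed above. Clec4a3 at -0.10, Clec12a at -0.08 and Clec7a at 0.19 did not pass. Clec10a at -0.46 passed (edgeR, adjusted p = 0.0149) but did not without MDSC Shp2f/fLysMcre replicate 2 (-0.17, adjusted p = 0.179). Clec7a passed at 0.40 without replicate 1 of that group (adjusted p = 0.000183). With total-count scaling, which put the median of all genes at -0.26 and split their calls into 4297 higher and 7440 lower against 5354 and 6075 with TMM, Clec12a at -0.27 and Clec4a3 at -0.29 passed too. TAM and MDSC differ in tissue, isolation and cell type at once, and these cannot be told apart.

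**Figure D4:**
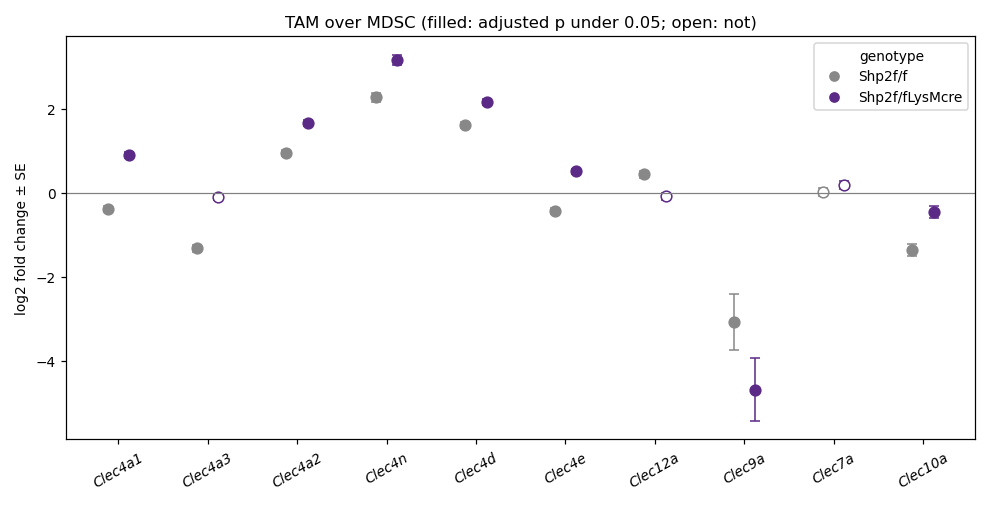
Log2 fold change of each receptor gene, TAM over MDSC, with its standard error, in Shp2f/f and in Shp2f/fLysMcre mice; filled points passed at an adjusted p under 0.05 and open points did not. Clec4a1 moves from -0.38 to 0.90 and Clec4e from -0.43 to 0.51 between the genotypes, while Clec4n, Clec4d and Clec4a2 lie above 0 and Clec9a and Clec10a below 0 in both.

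Levels of different receptors were compared per length, as CPM per kilobase of merged exons (FPKM). Control MDSC held mostly Clec4a3 at 353 ± 13.7 FPKM and Clec4a1 at 254 ± 6.70 FPKM (SD, n = 2 each), followed by Clec7a at 89.8 FPKM. No neighbors in that order overlapped, with Clec4e, Clec4d, Clec4a2, Clec4n and Clec12a between 61.9 and 34.9 FPKM, Clec10a at 15.7 FPKM and Clec9a at 0.198 FPKM. Control TAM was led by Clec4a1 at 196 ± 11.5 FPKM and Clec4n at 194 ± 4.76 FPKM (SD, n = 3 each), which overlapped. Next came Clec4d at 164 FPKM, Clec4a3 at 141 FPKM, Clec7a at 90.7 FPKM and Clec4a2 at 84.5 FPKM, of which the last 2 overlapped. Clec12a at 47.4 FPKM and Clec4e at 46.0 FPKM also overlapped, above Clec10a at 6.16 FPKM. Without SHP-2 the leading TAM gene was Clec4n at 328 ± 15.1 FPKM, whose range met that of Clec4a1 at 316 ± 10.3 FPKM (SD, n = 3 each), and the leading MDSC genes were again Clec4a3 at 213 FPKM and Clec4a1 at 169 FPKM. With the length of the longest transcript, Clec4d came to 198 FPKM in control TAM and stood level with Clec4a1 and Clec4n at 196 FPKM each, and Clec12a rose from 34.9 to 59.6 FPKM in control MDSC.

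**Figure D5:**
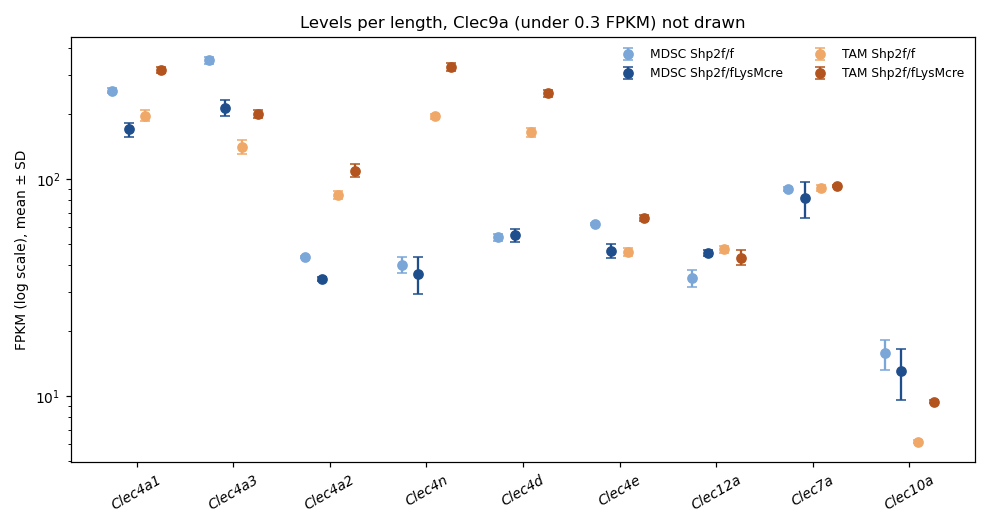
Mean level per length of 9 receptor genes in FPKM on a log axis, with the SD over 2 MDSC or 3 TAM libraries per genotype; Clec9a is left out. Clec4a3 and Clec4a1 lead in MDSC at 353 and 254 FPKM in Shp2f/f, Clec4n reaches 328 FPKM in SHP-2-deficient TAM, and Clec7a stays between 81.6 and 93.0 FPKM in all 4 groups.

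Ratios of 2 receptors within a library do not depend on how libraries are scaled. Clec4n per length was 0.649 ± 0.0599 times Clec4e in control MDSC (SD, n = 2) and 4.23 ± 0.191 times in control TAM (SD, n = 3). Clec4d to Clec4e was 0.870 ± 0.0407 in control MDSC (SD, n = 2) and 3.56 ± 0.128 in control TAM (SD, n = 3). Clec4a1 to Clec4a3 was 0.722 ± 0.00906 in control MDSC (SD, n = 2) and 1.39 ± 0.0185 in control TAM (SD, n = 3), and 1.59 ± 0.0153 in TAM without SHP-2 (SD, n = 3). The ranges of these ratios did not overlap between MDSC and TAM of either genotype, and that of Clec4a1 to Clec4a3 did not overlap between the genotypes in TAM or in MDSC, where it was 0.793 ± 0.00836 without SHP-2 (SD, n = 2). Clec4n to Clec4e also lay apart between the genotypes in TAM, at 4.05 to 4.43 in controls and 4.67 to 5.37 without SHP-2. Clec4a2 to Clec4a3 lay apart in the other direction in TAM, at 0.587 to 0.618 in controls and 0.522 to 0.58 without SHP-2. Clec4d to Clec4e overlapped between the genotypes in TAM.

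Over all 10 libraries the receptor genes fell into a few shapes. The log2 CPM of Clec4n and Clec4d correlated at r = 0.998, and Clec4a2 correlated with them at 0.986 and 0.982. Clec4e stood nearest to Clec4a1 at 0.948, and Clec4a3 to Clec10a at 0.884. These points come from 4 groups that share libraries, so the values only describe the pattern. Among the 12569 genes compared, the 3 with the pattern most like Clec4n were Renbp, Xylt2 and Gla, at r = 0.999, 0.998 and 0.998. For Clec4e they were Dram2 (0.988), Kcnk13 (0.984) and Gng2 (0.971). For Clec7a they were Trappc8 (0.968), Sptan1 (0.968) and Elmod2 (0.963), and for Clec10a Fbxo22 (0.987), Dmac1 (0.986) and Tmem50a (0.984).

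The genes that act with the receptors were described from lists. Of 28 genes of C-type lectin receptor signalling, 18 rose and 6 fell in TAM without SHP-2, where 23.9% of all genes rose and 26.3% fell. The median log2 fold change was 0.18 against -0.01 over all genes. The 4 with the largest change were Rasgrf1, Ptpn11, Nfatc1 and Malt1, all lower. Nfatc1, a transcription factor downstream of calcium, went from 504 ± 13.8 to 247.5 ± 2.71 CPM (SD, n = 3 each) and Malt1, the protease of the Card9 complex, from 273 ± 25.8 to 148 ± 19.8 CPM (SD, n = 3 each). Ptpn11, the targeted gene, is a member of this list, and its values are given above. Rasgrf1 was at 1.33, 1.28 and 5.04 CPM in controls and at 0.679, 1.4 and 1.07 CPM without SHP-2, and the groups overlapped. Its fall (-1.32, edgeR, adjusted p = 0.0498) rested on Shp2f/f replicate 3, without which it was at -0.33 and did not pass (adjusted p = 0.414). Without that replicate 16 genes of the list rose and 5 fell. In MDSC 0 of the 27 tested passed in edgeR, 2 had an unadjusted p under 0.05, and 0 passed in DESeq2. For this list and those below, calls without MDSC Shp2f/fLysMcre replicate 2 are not counted, since 1 library of its group was left.

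Of 18 cytokine, chemokine and response genes known to be induced through Syk and Card9, 17 were tested in TAM, where 11 rose and 2 fell (median 0.33). Of all genes tested in TAM 23.9% rose and 26.3% fell. Nos2, the inducible nitric oxide synthase, went from 22.5 ± 0.984 to 74.4 ± 0.623 CPM (SD, n = 3 each), a log2 fold change of 1.69 (SE 0.0446, edgeR, adjusted p = 2.20e-09). The chemokine genes Ccl4 (0.85) and Ccl3 (0.84) and the cytokine gene Il23a (0.79) also rose. In MDSC 0 of the 14 tested passed in edgeR, 6 had an unadjusted p under 0.05, and 3 passed in DESeq2, all higher. Of all 14806 genes tested there, 19.3% had such an unadjusted p, and DESeq2 called 968 higher and 288 lower. All 17 tested were higher in TAM than in MDSC in both genotypes, where 35.1% of all genes were in Shp2f/f and 32.3% in Shp2f/fLysMcre mice.

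Another 47 C-type lectin receptors and related lectins, such as selectins and NK cell receptors, were also followed. In TAM, of 29 tested, 10 rose and 9 fell, with a median of -0.01, where 23.9% of all genes rose and 26.3% fell. Besides Clec4b1, Colec12, a scavenger receptor, rose from 7.45 ± 0.581 to 15.7 ± 1.21 CPM (SD, n = 3 each). Cd207 (langerin) fell by 1.56 on the log2 scale (SE 0.101, edgeR, adjusted p = 3.86e-07) and Klrd1, an NK cell receptor, by 1.32 (SE 0.214, edgeR, adjusted p = 0.000366), the latter beside the lower NK cell markers given above. In MDSC 5 of 31 rose and 1 fell, where 3.76% of all genes rose and 0.52% fell. Mgl2, the neighbor of Clec10a, was at 1.48 and 0.692 CPM in controls and at 7.12 and 6.15 CPM without SHP-2, and Ly75 (DEC-205), an uptake receptor of dendritic cells, at 8.07 and 6.35 CPM and at 37.9 and 20.8 CPM. Clec2g fell, from 2.47 and 2.48 CPM to 0.894 and 0.801 CPM. In DESeq2 8 rose and 3 fell, where 968 and 288 of all 14806 genes tested did.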

How the data were processed

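RNA-seq was done on poly(A)-selected RNA of 10 samples in 4 groups, taken from the sample titles. The authors trimmed reads with cutadapt 2.5, aligned them with STAR 2.7.3a to GRCm38 and counted reads per Ensembl gene with featureCounts (Subread 1.6.2), and deposited raw counts, whole numbers that are not normalized. Their table of size-factor-normalized values was not used. The setting for strand and for reads with several matches is not given in the sources used here.

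Of the 55421 identifiers, 99.5% had a symbol in GENCODE (GRCm38). The tests used R 4.3.3 and edgeR 4.0.16 on the deposited counts: filterByExpr (minimum count 10), TMM scaling, quasi-likelihood F test, Benjamini-Hochberg adjustment over all genes tested, and calls at an adjusted p under 0.05. Genotype was tested within each cell type, and cell types and the interaction in 1 fit of all 10 samples. The tests were checked on simulated data. CPM printed here use TMM factors over all 10 libraries. No replicate pair had counts within sampling noise (chi-square per degree of freedom 4.46 to 58.1). The libraries held 28844660 to 38222998 counts, and Clec9a, with 0 to 35 counts a library, was the member least precisely measured.

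Named genes were all 10 receptors, and from each list up to 4 called genes with the largest change and a mean CPM of 1 or more, genes between or beside the receptors by position, and the 3 genes most correlated with Clec4e, Clec4n, Clec7a and Clec10a. Members and lists were chosen with earlier results of these data known. The alternatives were other scaling, DESeq2 1.42.0, other filters, a block for the replicate number, a single joint fit for the genotype tests, limma 3.58.1 voom with weights per cell type, transcript length, and leaving out each library.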

Additional observations from a re-analysis of the deposited data

Results flagged for a closer look

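For 8 of the 10 receptor genes the genotype difference was unequal in TAM and MDSC by the edgeR interaction test. The values, the log2 fold change in TAM less that in MDSC, were 1.28 for Clec4a1, 1.22 for Clec4a3, 0.94 for Clec4e, 0.89 for Clec4n, 0.88 for Clec10a, 0.71 for Clec4a2, 0.56 for Clec4d and -0.52 for Clec12a. For comparison, 24.9% of all genes tested passed this test. Groups of 2 or 3 libraries are too small for a formal test of single outlying samples. Above, MDSC Shp2f/fLysMcre replicate 2 and TAM Shp2f/f replicate 3 are named as standing apart by their markers, with values without them.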

How the results depend on the processing

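In TAM the 7 receptor genes that rose kept their direction and their call in all 13 alternatives, and all genes called fell from 7257 to 4837 in 1 fit of all 10 samples. In MDSC the number of genes called, 633, was 1256 with DESeq2, 130 with no filter on low counts and 2666 in 1 fit of all 10 samples, and leaving out 1 library gave 1 to 4406. The number of receptor genes called in MDSC, 1, was 2 with total-count scaling, 3 with DESeq2, 0 with no filter, 2 with a filter of 1 CPM, 5 in 1 fit of all samples and 0 to 7 when 1 library was left out. With the replicate block it was 5 receptor genes and 2674 genes in all, but same-numbered samples correlated at 0.174 in MDSC, with 2 pairs, and at -0.0827 to 0.0644 in TAM, so the numbers were not taken to pair samples, and the block moved no other number of calls by over 1.5 times. Genes called for the interaction, 4132, ranged from 2446 to 7023 when 1 library was left out, the lowest without MDSC Shp2f/f replicate 2 and the highest without MDSC Shp2f/fLysMcre replicate 1. The cause was not tested in any of these.

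Signs turned for Clec7a, Clec4d and Clec4n where they had not passed in TMM-scaled edgeR. Clec7a in TAM was at -0.10 with total counts, -0.01 with no filter and with a filter of 1 CPM, and -0.02 to 0.02 with a library left out. Between cell types in Shp2f/f mice Clec7a was at -0.01 with total counts and -0.01 to 0.04 with a library left out, and in Shp2f/fLysMcre mice at -0.00 with total counts. With a library left out its interaction ranged from -0.01 to 0.39 and its genotype value in MDSC from -0.39 to 0.05, while Clec4d in MDSC ranged from -0.04 to 0.07 and Clec4n from -0.35 to 0.00. Where an MDSC library was left out, the lone one of its group was assumed to vary like the others. Clec9a had too few counts for a genotype test in TAM.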
